A study of Saccharomyces cerevisiae with 26 samples.

Results

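Cytoplasmic ribosomal protein genes of budding yeast (Saccharomyces cerevisiae) were taken by name, as protein-coding genes of the R64 annotation whose symbol is RPL or RPS followed by a number and, where there is a second copy, A or B. This gave 132 of 6002 protein-coding genes, of which 76 encode proteins of the large subunit (RPL) and 56 proteins of the small subunit (RPS). They form 57 A and B pairs, 33 RPL and 24 RPS, and 18 genes with no partner, 10 RPL and 8 RPS. The genes lie on 15 of the 16 chromosomes, 71 on the Watson strand and 61 on the Crick strand. Their median span was 783 bp, from 78 to 1662 bp, against 1200 bp for all genes.

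A ribosome carries a copy of nearly every ribosomal protein, and growing yeast cells devote a large part of their transcription by RNA polymerase II to these genes. Rap1 binds most of their promoters and brings in Fhl1, Ifh1 and Sfp1, through which nutrient signals from TORC1 and protein kinase A raise or lower the whole group together. Most of the proteins are encoded by a pair of genes that stem from an ancient duplication of the genome, and the copies of a pair often encode nearly the same protein.

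The study concerned the Forkhead factors Fkh1 and Fkh2 and the timing of replication origins. Of its 26 libraries, 8 hold DNA bound by Rpb3, a subunit of RNA polymerase II, and 8 hold strand-specific RNA. Each assay has 2 libraries of each of 4 groups: the strain labelled fkh1Δfkh2Δ2C and WT, both growing asynchronously, and the same strains held in G1 for 4 hours with α-factor, the mating pheromone. All cells grew in rich medium (YEPD) at room temperature. The mutant carries changes in both FKH1 and FKH2, and the labels do not explain 2C. No label says that the replicates were separate cultures, so p-values here reflect the spread of these samples alone, and that spread may be technical. Values are the authors' normalized signal in bins of 50 bp, averaged over each gene. Read depth is unknown, and since the median gene had 39 to 39.8 Rpb3 in every library, levels are relative to the rest of the genome. RNA, from which ribosomal RNA was removed without selection for poly(A) tails, is the signal on the sense strand, and genes on the Crick strand have 1 usable asynchronous RNA library per strain, because a pair of columns carries the same name.

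The targeted genes and the arrest were checked first. FKH1 had a mean Rpb3 signal of 3.30 and 3.11 in asynchronous fkh1Δfkh2Δ2C, against 35.2 and 38.4 in asynchronous WT, and of 7.62 and 2.97 in arrested fkh1Δfkh2Δ2C, against 40.4 and 27.6 in arrested WT. Part of FKH2 was absent, with 10.1 to 11.5 over its last 650 bp in the 4 mutant libraries and 27.2 to 40.3 in the 4 WT libraries, while over the rest of the gene the mutant had 46.5 to 58.1 and WT 27.1 to 37.8. All 5 pheromone-induced genes examined (FIG1, FIG2, FUS1, AGA1 and PRM1) rose in G1 in both strains and both assays. Of 5 genes of dividing cells (HHF1, HHT1, HTA2, CLB2 and EGT2), 4 fell in RNA and 5 in Rpb3 in arrested WT, and 3 and 4 fell in the arrested mutant. The exceptions in the mutant included CLB2, a target of Fkh2, with a Rpb3 signal of 47.5 and 53.8 in the arrested mutant and 23.3 and 21.3 in arrested WT. The a-type genes MFA1, MFA2, STE2 and STE6 carried signal in every library, and BAR1, which encodes the protease that degrades α-factor, was listed at 0 in every library of both assays.

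In 7 of the 8 Rpb3 libraries the ribosomal protein genes were among the genes with the most RNA polymerase II, and in asynchronous WT replicate 1 they were not. Their median Rpb3 signal was 173 and 181 in asynchronous fkh1Δfkh2Δ2C, against 25.8 in asynchronous WT replicate 1 and 145 in replicate 2. In arrested cells it was 129.7 and 128 in the mutant and 109.7 and 117 in WT. The median member ranked at percentile 94.7 to 97.7 of all genes in those 7 libraries and at percentile 11.3 in asynchronous WT replicate 1. There 59 of the 132 lay in the lowest 10% of genes and 10 lay above the median gene, while in the other libraries 127 to 131 did. The genes cover 0.828% of the bins and held 2.22% to 3.49% of the Rpb3 signal in the 7 libraries, against 0.492% in that one.

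**Figure D1:**
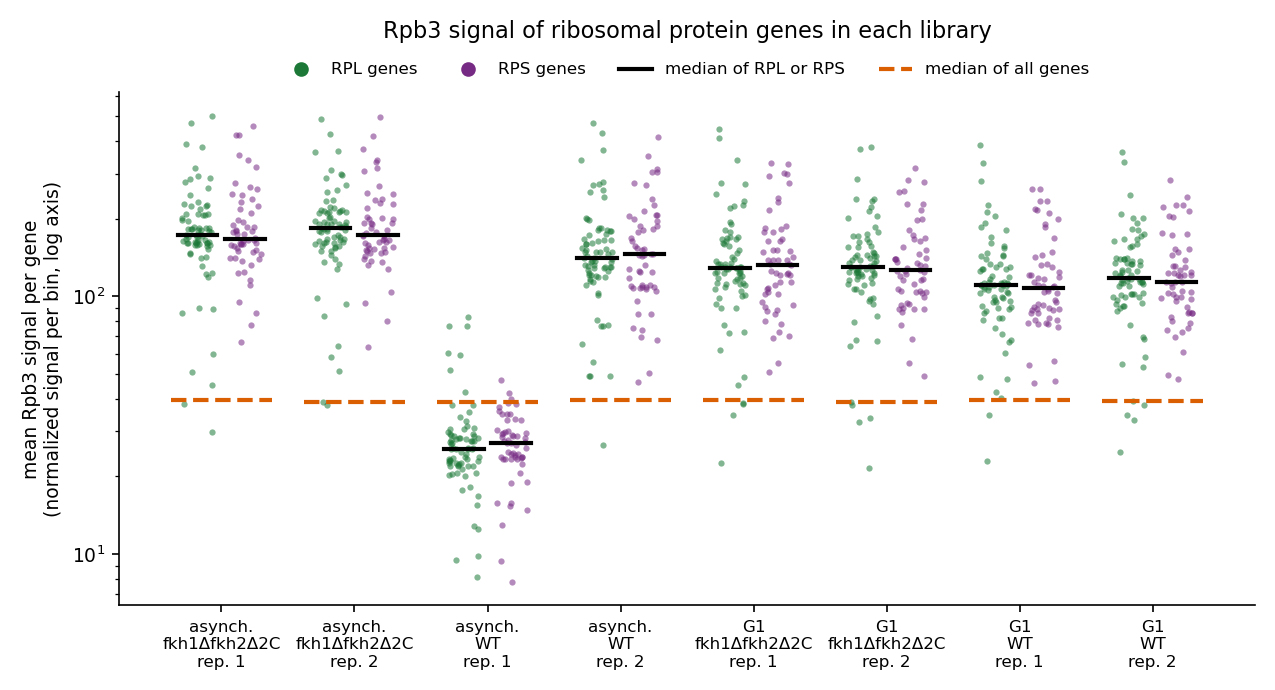
Mean Rpb3 signal of each ribosomal protein gene (log axis, normalized signal per bin) in each of the 8 libraries, with RPL genes in green, RPS genes in purple, their medians as black bars and the median of all genes as a dashed line. In asynchronous WT replicate 1 the medians of both subunits lie below that of all genes, and in the other 7 libraries they lie above it.

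The same library also stood apart from its replicate over the whole genome. The Pearson r of log2 Rpb3 between the asynchronous WT replicates was 0.793 over 6002 genes, against 0.983 to 0.990 within the other groups. Over the 132 members the median difference of replicate 2 from replicate 1 was 2.29 on the log2 scale, and 131 were higher in replicate 2. The exception was RPL15B, the weakly used copy of a large-subunit core protein, with 76.9 in replicate 1 and 49.3 in replicate 2. The RNA library labelled asynchronous WT replicate 1 did not share this pattern, and its median Watson-strand member ranked at percentile 96.3. Genes of dividing cells kept their place in the Rpb3 library, at a median percentile of 98.7 there and 97.6 in replicate 2. The part that its preparation played was not tested, and counts of members called in Rpb3 are therefore given with and without it.

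Rpb3 signal was higher inside these genes than upstream of their annotated start, again except in asynchronous WT replicate 1. In the bin 475 bp before the start the median over members was 48.3 and 50.6 in asynchronous fkh1Δfkh2Δ2C and 34.4 and 39.3 in asynchronous WT, and in the bin 225 bp after it 186 and 198 in the mutant against 27.3 and 146 in WT. In arrested cells the bin after the start held 146 and 133 in the mutant and 114 and 121 in WT. Among the 128 members with at least 4 bins, the downstream part of the gene (after its midpoint) exceeded the upstream part in 63 and 38 in asynchronous fkh1Δfkh2Δ2C and in 33 and 50 in asynchronous WT. In arrested cells it did so in 39 and 66 in the mutant and in 74 and 73 in WT. Both arrested WT libraries lay above the other 6 in this count, and the other 3 groups overlapped.

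**Figure D2:**
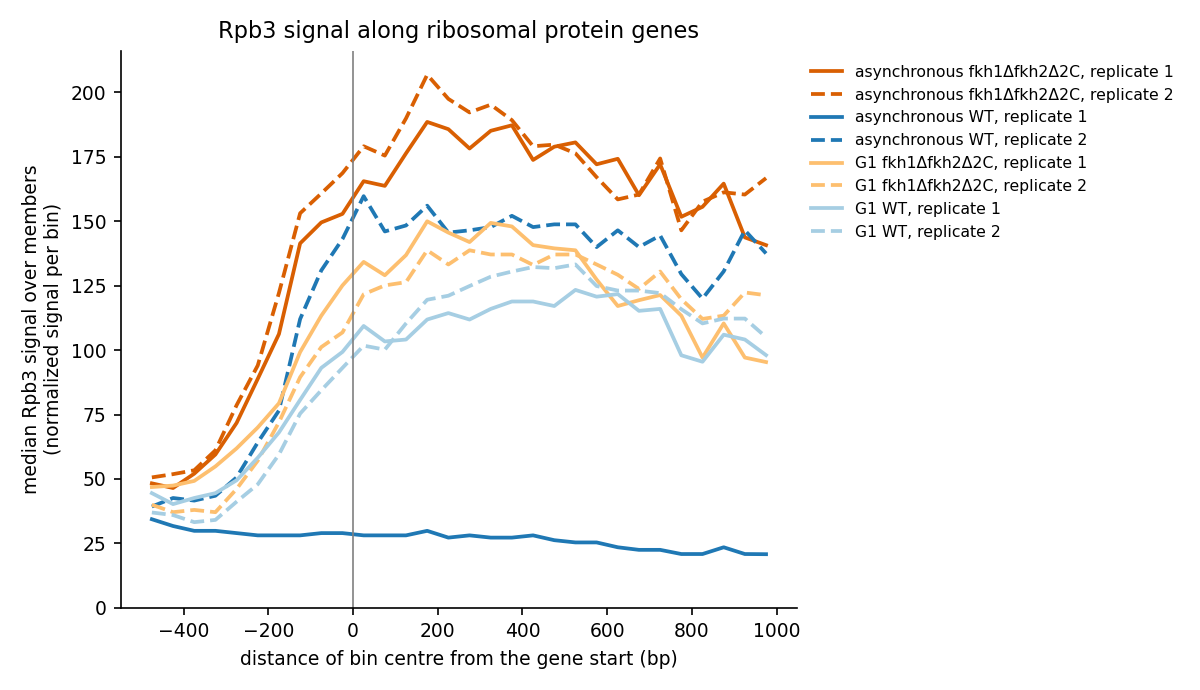
Median Rpb3 signal over the members (normalized signal per bin) against the distance of the bin from the annotated gene start, 1 line per library, with bins past the end of a gene left out. All lines except that of asynchronous WT replicate 1 climb before the start, and those of asynchronous fkh1Δfkh2Δ2C lie above the others from 375 bp before to 875 bp after it.

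The members with the most Rpb3 in asynchronous WT were RPL3, RPL28, RPS14B, RPL10 and RPL9B, of which RPL3, RPL28 and RPL10 have no second copy. RPL3 and RPL10 encode proteins near the site where peptide bonds form, and RPL28 the protein that carries cycloheximide resistance mutations. RPL3 (chromosome XV, 444651 to 445800, coordinates of the deposited bins, whose build is not named) had 472 and 426 in the mutant libraries and 51.7 and 473 in the WT libraries in asynchronous cells, and 447 and 380.5 in the mutant libraries and 388 and 364 in the WT libraries in arrested cells. RPL28 (chromosome VII, 310901 to 311900) had 503 and 488 in the mutant libraries and 35.5 and 430.0 in the WT libraries in asynchronous cells, and 412 and 374 in the mutant libraries and 329.7 and 332 in the WT libraries in arrested cells. RPS14B, a small-subunit gene whose pre-mRNA splicing is limited by its own product, had 459 and 498 in the mutant libraries and 33.2 and 416 in the WT libraries in asynchronous cells. In all 3 genes the asynchronous WT replicate 1 value was the lowest of the 8, and without it both arrested WT libraries were lower than every asynchronous library.

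Members with low Rpb3 in asynchronous WT included RPL1A, RPL4A and RPL11A. RPL1A, which encodes a protein of the mobile L1 stalk, had 29.9 and 38 in the mutant libraries and 9.49 and 26.4 in the WT libraries and was the only member below the limit on low genes, so 131 members entered the Rpb3 tests. All 3 overlap blank bins, defined as bins with a mean Rpb3 signal under 5 over the 7 libraries other than asynchronous WT replicate 1. Blank bins made up 93 of the 1998 bins of the members (4.66%, against 5.71% over all genes) and lay in 24 members (18.2%, against 6.20% of all genes). They lay in both copies of 11 pairs (among them RPL1, RPL2, RPL4, RPL7, RPL11, RPL14, RPL35, RPS4, RPS6 and RPS24), in 1 copy of RPL8 and RPL15, and in 0 of the 18 genes with no partner. In 11 members more than 25% of the bins were blank, and low levels of these genes are therefore uncertain. No source used here says how reads matching both copies were treated, and its part in the blank bins was not tested.

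Sense RNA of the ribosomal protein genes was high in every library, asynchronous WT replicate 1 included. The median over members was 11.6 (71 Watson-strand genes) and 15.4 in asynchronous fkh1Δfkh2Δ2C, against 12.4 (71 genes) and 14.4 in asynchronous WT. In arrested cells it was 10.3 and 11 in the mutant and 11.4 and 9.36 in WT, where the median gene had 0.645, 0.579, 0.577 and 0.545. The median member ranked at percentile 95.1 to 96.8. The 71 Watson-strand members cover 0.471% of the bins and held 8.20% to 11.4% of the signal of the matching strand column.

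**Figure D3:**
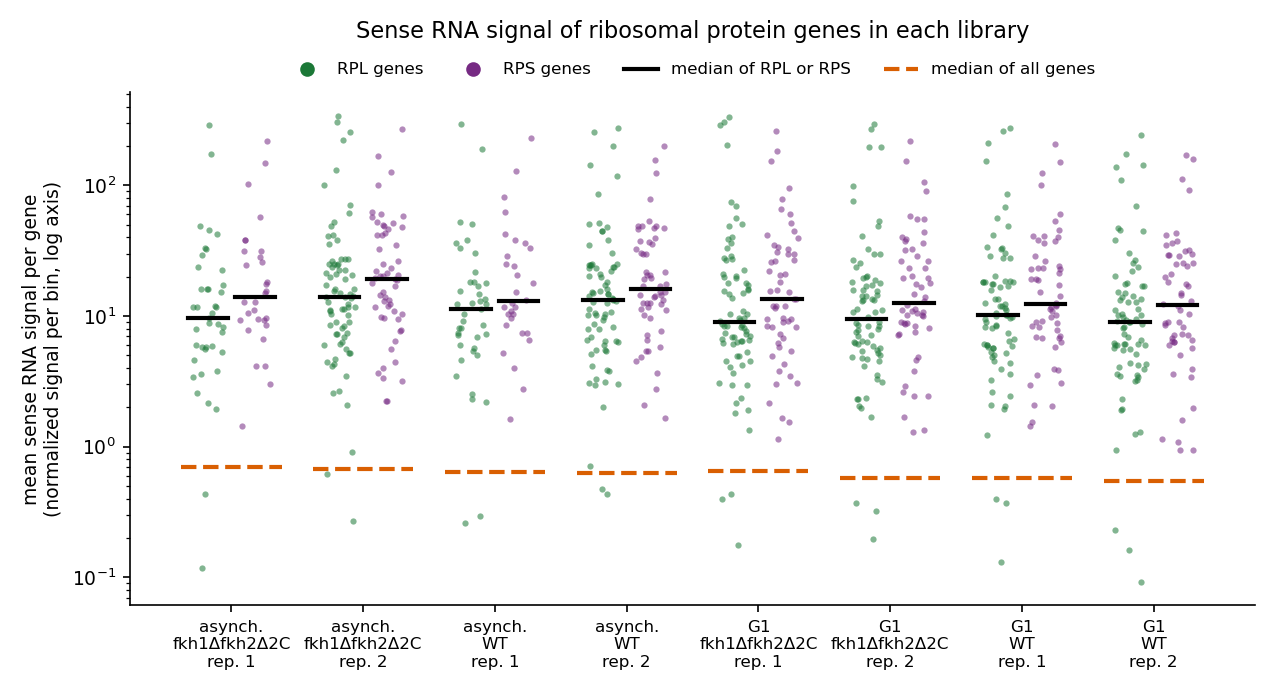
Mean sense RNA signal of each ribosomal protein gene (log axis, normalized signal per bin) in each of the 8 libraries, with RPL genes in green, RPS genes in purple, their medians as black bars and the median of all genes as a dashed line. Asynchronous replicate 1 of each strain holds only the 71 Watson-strand genes, and in every library both medians lie more than 10 times above the median gene.

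RNA levels spread over a far wider range than Rpb3. The highest members in asynchronous WT were RPL10, RPL15A, RPS31, RPL3 and RPS12. RPL10 (chromosome XII, 282901 to 283550) had 289 and 341 in the mutant libraries and 297 and 275 in the WT libraries in asynchronous cells, and 335 and 292 in the mutant libraries and 273 and 244 in the WT libraries in arrested cells. RPS31, whose product is made as a fusion to ubiquitin, had 218 and 271 in the mutant libraries and 229.8 and 201 in the WT libraries in asynchronous cells, and 262 and 219 in the mutant libraries and 206 and 169 in the WT libraries in arrested cells. The arrested WT libraries held the lowest values of RPL10, and for RPS31 the asynchronous groups overlapped. The lowest members were RPL35B, RPL35A, RPL15B, RPS30B and RPS7B. RPL35A had 0.118 and 0.272 in the mutant libraries and 0.258 and 0.478 in the WT libraries in asynchronous cells although its Rpb3 signal was 119 and 128 in the mutant and 20.5 and 77 in WT, and both RPL35 copies overlap blank bins. Over the 132 members the Spearman rho of mean RNA with mean Rpb3 was 0.252, against 0.617 over all 6002 genes. Genes share libraries and normalization, so both are descriptions without a test.

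In the mutant against WT, Rpb3 on ribosomal protein genes was higher by a margin that rested largely on asynchronous WT replicate 1. With all libraries the median log2 difference of the 131 fitted members in asynchronous cells was 1.44 (−0.04 over 5401 genes), and without that library it was 0.28 (−0.03). In limma's test, adjusted over all genes with a threshold of 0.05, 0 members rose or fell with all libraries (0% of all genes higher and 0% lower), and 33 members had an unadjusted p under 0.05. Counts at an unadjusted p, here and below, have no share over all genes beside them and are not calls. Without that library 3 members rose and 0 fell (0.185% and 0.0926% of all genes). Both mutant libraries lay above both WT libraries in 112 members and below both in 1 (24.6% and 34.9% of all genes), and without replicate 1 above the remaining WT library in 112 and below it in 8 (34.1% and 49%).

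The 3 members that rose without that library were RPS30B, RPS29B and RPL31A. Asynchronous WT is then 1 library, which the fit assumes to vary like the other groups, and its own spread is not measured. RPS30B, which encodes a small-subunit protein, had a Rpb3 signal of 177 and 201 in the mutant libraries and 18.9 and 75.4 in the WT libraries. Its log2 difference was 2.18 ± 0.53 (SE) with all libraries (limma adjusted p = 0.194) and 1.28 ± 0.18 (SE) without replicate 1 (adjusted p = 0.0483, 4.90e-06 to 0.598 over the alternatives). The mutant libraries lay above both WT libraries. RPS29B, which encodes a zinc-binding protein of the small-subunit head, had 166 and 163 in the mutant libraries and 15.7 and 69.4 in the WT libraries. Its difference was 2.15 ± 0.54 (SE) with all libraries and 1.20 ± 0.14 (SE) without replicate 1 (limma adjusted p = 0.0333, 2.12e-06 to 0.598 over the alternatives). RPL31A, which encodes a protein near the exit of the peptide tunnel, had 184 and 191 in the mutant libraries and 22 and 101 in the WT libraries, and its difference was 0.87 ± 0.12 (SE) without replicate 1. The groups did not overlap in either gene. Their RNA did not pass the test, with RPS29B at 26.3 in the mutant library and 29.8 in the WT library with a value and RPL31A at 5.56 and 10.1 in the mutant libraries and 7.43 and 8.25 in the WT libraries.

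RPL15B was the only member below WT in both asynchronous mutant libraries, with Rpb3 at 38.4 and 38.8 in the mutant libraries and 76.9 and 49.3 in the WT libraries (log2 difference −0.62 with all libraries and −0.32 without replicate 1). It did not pass the test with either set of libraries. RPS30A, the other gene for the same protein as RPS30B, had 154 and 153 in the mutant libraries and 33 and 85.5 in the WT libraries and did not pass the test either, with a difference of 1.46 with all libraries and 0.82 without replicate 1.

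In arrested cells, where no WT library stood apart, the difference between the strains was small. The median log2 difference of Rpb3 was 0.18 over the members (−0.01 over all genes), positive in 124 of 131. Both mutant libraries lay above both WT libraries in 104 members and below both in 2 (20.5% and 20.9% of all genes). In limma 0 members rose or fell (0% of all genes in each direction), with 0 at an unadjusted p under 0.05. Without asynchronous WT replicate 1, which enters this comparison only through the pooled spread, the count was again 0, with 36 at an unadjusted p under 0.05. The smallest p among higher members belonged to RPL35B, RPL41A and RPS28B, with log2 differences of 0.38, 0.42 and 0.34. RPL41A, the gene for the shortest ribosomal protein, had 234 and 239 in the mutant libraries and 181 and 171 in the WT libraries, without overlap. Among lower members they were RPL15B, RPL11A and RPL4A (−0.18, −0.09 and −0.10), of which RPL11A and RPL4A are among those with many blank bins.

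Averaged over both stages, the median log2 difference of the mutant from WT was 0.82 with all libraries and 0.22 without asynchronous WT replicate 1. With all libraries limma called 0 members (0% of all genes in each direction), with 10 at an unadjusted p under 0.05, and without that library 13 rose and 0 fell (1.37% and 1.11% of all genes). These were 6 RPL and 7 RPS genes. The 10 with the largest differences in that fit were RPS30B (0.71), RPS29B (0.64), RPS30A (0.53), RPL31A (0.52), RPL38 (0.51), RPL22A (0.51), RPL17B (0.45), RPL35A (0.43), RPS10B (0.40) and RPS28A (0.40). RPL38, a gene with no second copy, had 208 and 216 in the mutant libraries and 28.3 and 129 in the WT libraries in asynchronous cells and 124 and 126 in the mutant libraries and 95 and 103 in the WT libraries in arrested cells. In both stages its mutant libraries lay above its WT libraries. With all libraries the smallest p belonged to RPS30A (0.85), RPS30B (1.16) and RPS29B (1.12), and the 1 member below 0 was RPL15B (−0.40).

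No difference in RNA of these genes was detected between the strains. The median log2 difference over the 132 members was 0.10 in asynchronous cells (0.07 over all genes) and 0.12 in arrested cells (0.10), and 0.10 averaged over both stages (0.10). Limma called 0 members in each of these comparisons (0% of all genes higher and 0% lower in asynchronous cells, 0.037% and 0.0185% in arrested cells, 0.0185% and 0.037% averaged), with 0, 3 and 1 at an unadjusted p under 0.05. Of the 71 members with all asynchronous libraries, 7 lay above WT and 5 below it in both mutant libraries (24.2% and 13.6% of all genes). In arrested cells 29 lay above and 6 below (22.9% and 12.1%).

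The member with the smallest p was RPL15A in arrested cells, with RNA at 307 and 271 in the mutant libraries and 211 and 175 in the WT libraries and a log2 difference of 0.58 ± 0.19 (SE) (limma adjusted p = 0.527, 0.310 to 0.835 over the alternatives). RPL3 and RPS25B followed, with 0.43 and 0.60, and among lower members RPS27B (−0.41), RPL39 (−0.44) and RPL43A (−0.31). In RPL3 and RPL15A the mutant libraries lay above the WT libraries. In asynchronous cells the smallest p belonged to RPS22B (0.33), RPL1A (0.44) and RPL41A (0.83) among higher members and to RPS14A (−0.59), RPL4A (−0.41) and RPL35A (−0.76) among lower ones. Averaged over both stages they were RPL15A (0.42), RPS25A (0.46) and RPS17B (0.37), and RPL4A (−0.30), RPS14A (−0.35) and RPL25 (−0.22). With the median over bins in place of the mean, RPS14A was 0.22 in asynchronous cells and 0.34 over both stages, and RPS27B was 4.6 in arrested cells. RPS22B, RPL7A and RPL7B each hold a gene for a small nucleolar RNA within their span, so the RNA signal of these 3 members need not be all messenger RNA.

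Rpb3 on most ribosomal protein genes fell in the arrested mutant where the spread was estimated without asynchronous WT replicate 1. The median log2 difference of G1 from asynchronous cells in fkh1Δfkh2Δ2C was −0.42 over the 131 members and −0.02 over all genes, and 129 of 131 were negative. With all libraries limma called 0 members (1.68% of all genes higher and 0.5% lower), with 0 at an unadjusted p under 0.05. Without asynchronous WT replicate 1 the differences were the same, and 92 members fell and 0 rose (10.1% of all genes lower and 9.26% higher). Without asynchronous WT replicate 2 instead, 95 fell (10.4% of all genes). Both G1 libraries lay below both asynchronous libraries in 128 members and above both in 1 (35.7% and 29.8% of all genes). In bulk samples, fewer cells using a gene and less polymerase per cell cannot be told apart.

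The 10 members with the largest falls in the mutant without that library were RPS29B (−0.99), RPS30B (−0.90), RPL41B (−0.88), RPS28A (−0.78), RPL17B (−0.77), RPS25B (−0.76), RPL38 (−0.74), RPL29 (−0.74), RPS22A (−0.72) and RPS25A (−0.68). RPS29B had 72.7 and 89.2 in G1 and 166 and 163 in asynchronous mutant cells. Its SE was 0.54 with all libraries (limma adjusted p = 0.468) and 0.11 without asynchronous WT replicate 1 (adjusted p = 0.00146, 0.00115 to 0.992 over the alternatives). RPS28A, a gene for a small-subunit protein, had 90.8 and 93.2 in G1 and 160.3 and 161 in asynchronous cells. RPS25A and RPS25B, the copies of a small-subunit gene used in initiation from internal entry sites, both fell, RPS25A to 134 and 155 in G1 against 247 and 221 in asynchronous cells. In all 10 the groups did not overlap. The members above 0 were RPL24A (0.08) and RPS27B (0.07), which did not pass the test. RPS29B and RPS30B were also the members with the largest differences of the mutant from WT in asynchronous cells, and both comparisons use the asynchronous mutant libraries. With all libraries the smallest p belonged to RPS29B, RPS28A and RPS30A (−0.66).

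In WT the direction of the arrest depended on the asynchronous library set against G1. With all libraries the median log2 difference of G1 from asynchronous WT was 0.84 over the members (−0.02 over all genes), and without replicate 1 it was −0.36 (−0.04). With all libraries limma called 0 members (2.41% of all genes higher and 1.33% lower), with 1 at an unadjusted p under 0.05. Without replicate 1, 21 fell and 0 rose (5.13% and 5.18% of all genes), and without replicate 2, 130 rose and 1 fell (19.5% and 20.6% of all genes). Each of these fits sets G1 against 1 asynchronous WT library and takes its spread from the other groups, so the calls depend on which library remains. Both G1 libraries lay below replicate 2 in 121 members and above it in 7 (47.9% and 32.5% of all genes), while with both asynchronous libraries the groups overlapped in 123 members, with 1 below and 7 above (24.7% and 15.4%).

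The 10 largest falls without replicate 1 were RPL1B (−0.87), RPS20 (−0.83), RPS24B (−0.73), RPL9B (−0.63), RPS14B (−0.61), RPS1B (−0.58), RPL2A (−0.58), RPL40B (−0.57), RPS27A (−0.57) and RPL15A (−0.57), all of which were positive with all libraries (0.36 to 1.14). RPS20, a gene with no second copy that encodes a protein of the small-subunit head, had 109 and 120.2 in arrested WT and 30.3 and 208 in asynchronous WT. Its difference was 0.48 ± 0.75 (SE) with all libraries and −0.83 ± 0.14 (SE) without replicate 1 (limma adjusted p = 0.0104, 4.01e-05 to 0.912 over the alternatives). In the mutant the same gene had 164 and 139.6 in G1 and 194 and 203 in asynchronous cells (−0.38). With all libraries the smallest p among higher members belonged to RPL11A (1.09), RPS30B (1.14) and RPL24A (1.36), and the 1 member below 0 was RPL15B (−0.55).

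**Figure D4:**
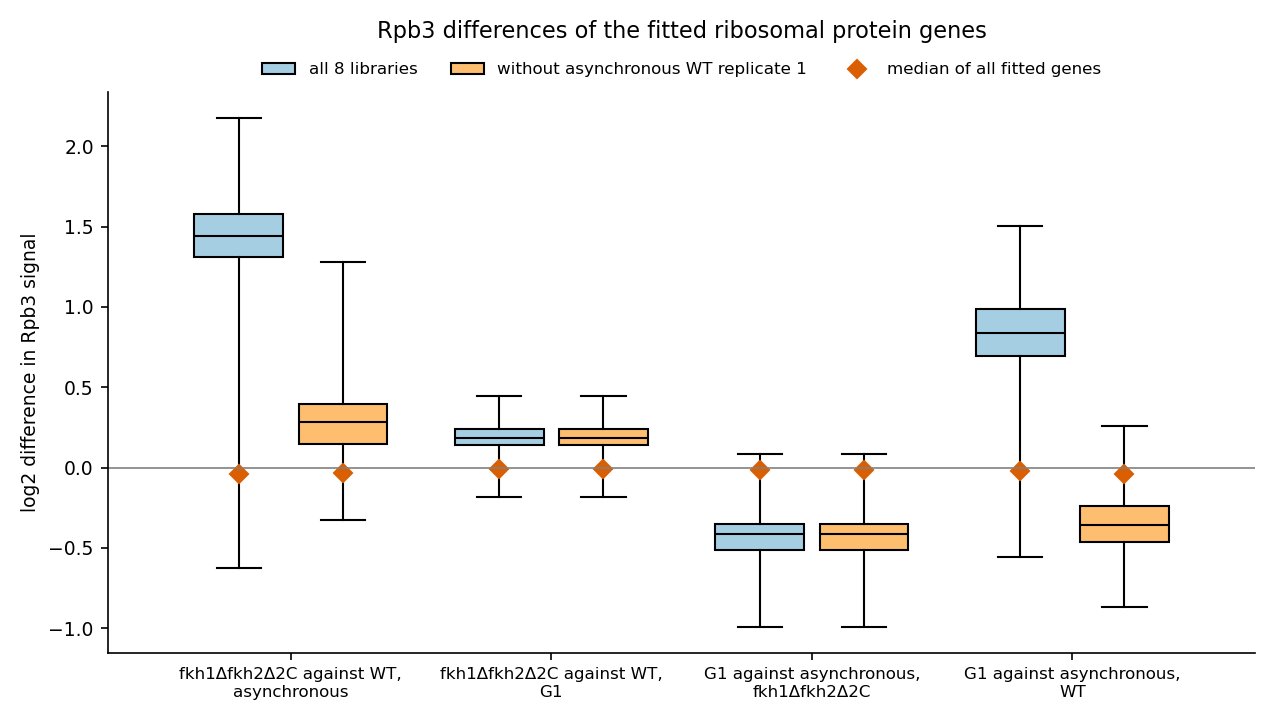
Log2 differences in Rpb3 of the 131 fitted members in 4 comparisons, with all 8 libraries (blue) and without asynchronous WT replicate 1 (orange); boxes span the quartiles, whiskers the full range, and diamonds mark the median of all fitted genes. For the mutant against WT in asynchronous cells the median is 1.44 with that library and 0.28 without it, and for G1 against asynchronous WT it is 0.84 with it and −0.36 without it.

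Averaged over both strains, the median arrest difference was 0.20 with all libraries and −0.38 without asynchronous WT replicate 1. Limma called 0 members with all libraries (2.65% of all genes lower and 4.33% higher), with 0 at an unadjusted p under 0.05, and 116 lower without that library (16.6% and 12.8% of all genes). Without replicate 2, 129 were called higher and 1 lower (15% and 16% of all genes). With all libraries the smallest p belonged to RPL24A (0.72), RPS27B (0.79) and RPS22B (0.47) above 0 and to RPL15B (−0.33), RPS28A (−0.22) and RPS25B (−0.12) below it.

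Whether the arrest differed between the strains was tested as an interaction. Its median over the members was −1.28 with all libraries and −0.08 without replicate 1, and 0 members passed in limma with all libraries (0% of all genes) or without replicate 1 (0.13% higher and 0% lower), with 3 and 17 at an unadjusted p under 0.05. Without replicate 2 all 131 passed, 130 lower and 1 higher (16.6% and 17.3% of all genes). With all libraries RPL15B had 0.44, the 1 positive value, and the smallest p below 0 belonged to RPS30B (−2.04), RPS29B (−2.06) and RPL11A (−1.66). Without replicate 1 the interaction was −1.14 for RPS30B and −1.11 for RPS29B.

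RNA of the ribosomal protein genes was lower in G1 than in asynchronous cells by a small margin, and 1 gene passed the test. The median log2 difference was −0.33 in the mutant (−0.16 over all genes) and −0.40 in WT (−0.18), negative in 126 and 120 of 132 members. In each strain limma called 0 members (0.241% of all genes lower and 0.444% higher in the mutant, 1.31% and 0.852% in WT), with 9 and 18 at an unadjusted p under 0.05. Of the 71 members with all libraries, both G1 libraries lay below both asynchronous libraries in 33 and above in 0 in the mutant (31.6% and 13.4% of all genes), and below in 50 and above in 1 in WT (35.9% and 19.3%).

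Averaged over both strains the median was −0.38 (−0.18), and RPL27B alone fell (1 of 132, against 2.18% of all genes lower and 1.63% higher), with 43 members at an unadjusted p under 0.05. The share of all genes under that limit is not given, so the 43 are not read as a trait of the members. RPL27B, which encodes a large-subunit protein, had 9.38 and 7.54 in G1 and 11.6 and 14.1 in asynchronous mutant cells, and 8.43 and 5.98 in G1 and 13.1 and 14.8 in asynchronous WT cells. The G1 libraries lay below the asynchronous libraries in both strains, with a log2 difference of −0.78 ± 0.17 (SE) (limma adjusted p = 0.0444, 0.0281 to 0.386 over the alternatives). With any 1 library left out, RPL27B did not pass. Next were RPS14B (−0.94) and RPL17B (−0.65), which did not pass. RPS14B had 3.0 and 2.44 in G1 and 4.14 and 4.42 in asynchronous mutant cells, and 3.06 and 1.60 in G1 and 5.20 and 5.35 in asynchronous WT cells, without overlap. The smallest p above 0 belonged to RPL41B (0.26), RPS22B (0.07) and RPL41A (0.15). Without the bins of its small RNA, RPS22B had −0.20.

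Within 1 strain the lowest p in the mutant belonged to RPL9B (−0.66), RPS16B (−0.80) and RPL17B (−0.60) below 0 and to RPS1A (0.12), RPL12A (0.08) and RPL41B (0.05) above it. In WT it belonged to RPL36A (−1.24), RPL27B (−0.97) and RPS14B (−1.23), and to RPS22B (0.26), RPL41B (0.48) and RPL24A (0.34). None of these passed the test. In the interaction of strain and stage 0 of 132 members passed (0% of all genes) and 0 had an unadjusted p under 0.05, with a median of 0.01 (0.03 over all genes). The smallest p belonged to RPS24B (1.28), RPL3 (0.41) and RPS9B (0.56) above 0 and to RPS22B (−0.38), RPS27B (−0.68) and RPL24A (−0.67) below it.

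The medians of RPL and RPS genes were close in Rpb3. Without asynchronous WT replicate 1 the median log2 difference of the mutant from WT in asynchronous cells was 0.29 over 75 RPL genes and 0.26 over 56 RPS genes, and in arrested cells 0.18 and 0.19. The arrest difference was −0.44 for RPL and −0.40 for RPS in the mutant, and −0.35 and −0.37 in WT without replicate 1. Of the 92 members that fell in the arrested mutant without that library, 56 were RPL and 36 were RPS genes. In RNA the arrest difference was −0.35 for RPL and −0.31 for RPS in the mutant, and −0.43 and −0.38 in WT. The RPS median of RNA was higher than the RPL median in each library, at 19.3 against 14.1 in asynchronous fkh1Δfkh2Δ2C replicate 2 and 12.9 against 11.4 in asynchronous WT replicate 1, for example. The quartiles of RPL genes in that mutant library, 7.32 and 25, enclose both medians. No test was run between the subunits, which were not sampled as groups.

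Genes with no partner had higher medians than the copies of pairs, given here as a description without a test. Their median Rpb3 was 176 to 283 in the 7 libraries other than asynchronous WT replicate 1, against 106 to 171 for A copies and 107 to 173 for B copies. In asynchronous WT replicate 1 the medians were 28.7, 26.6 and 23.8. In RNA they were 30.7 to 49.2 for genes with no partner, 9.28 to 15.4 for A copies and 8.19 to 14.1 for B copies. In the arrested mutant the median Rpb3 difference was −0.42 for A and −0.44 for B copies, and −0.36 for genes with no partner. In RNA the median arrest difference was −0.32 for A and −0.41 for B copies and −0.25 for genes with no partner in the mutant, and −0.37, −0.46 and −0.27 in WT. Differences between these classes were not tested. Blank bins lay in 12 of 57 A copies, 12 of 57 B copies and 0 of 18 genes with no partner. How reads matching both copies were treated is unknown, and its part in these medians was not tested.

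The copies of a pair carried nearly equal Rpb3 and often very unequal RNA. The lowest 10% of genes lay below 27.5 in Rpb3, where the median gene had 39 to 39.8. In RNA they lay below 0.0744, where the median gene had 0.545 to 0.695. The sizes of ratios in the 2 assays are therefore not directly comparable. Over the 57 pairs the median absolute log2 ratio of A over B was 0.24 in Rpb3, over the 7 libraries other than asynchronous WT replicate 1, and 1.20 in RNA. A ratio beyond 2-fold was found in 2 pairs in Rpb3 and in 34 pairs in RNA, of which 18 favoured A and 16 favoured B. In RNA 45 pairs kept their direction in every library with values for both copies, and in Rpb3 34 did. Neither letter was favoured as a group, with A higher in 30 of 57 pairs in Rpb3 and 29 in RNA. Leaving out blank bins gave medians of 0.25 and 1.20, with 2 and 33 pairs beyond 2-fold.

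**Figure D5:**
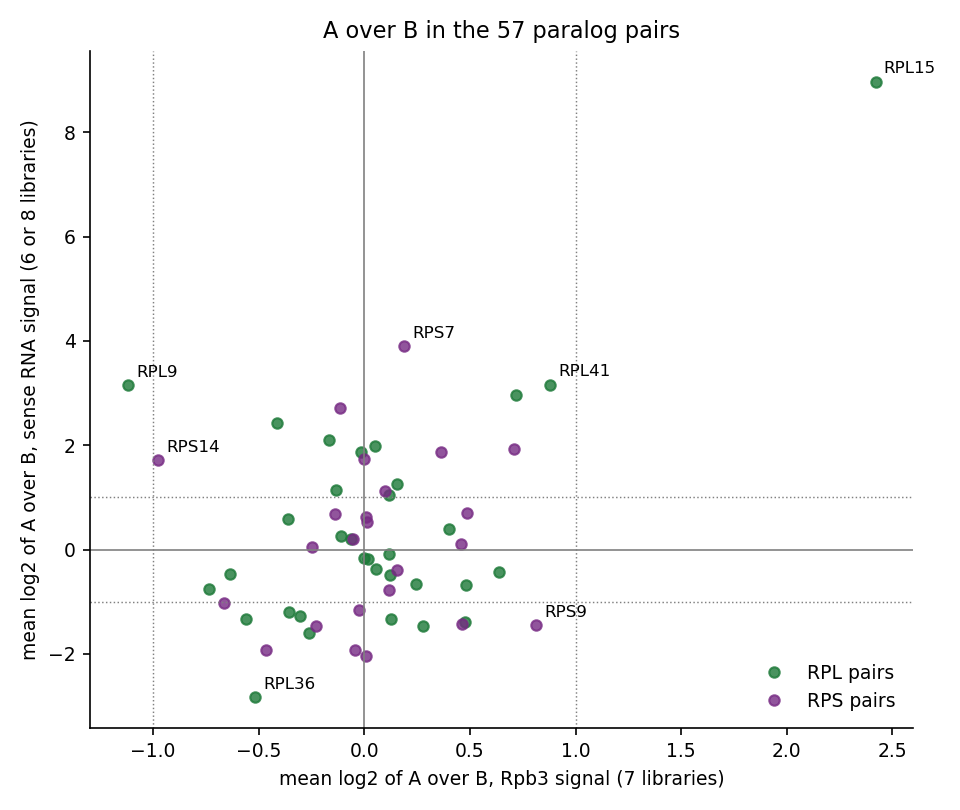
Mean log2 ratio of the A over the B copy in the 57 pairs, Rpb3 on the horizontal axis (7 libraries, without asynchronous WT replicate 1) and sense RNA on the vertical axis (6 or 8 libraries), with dotted lines at 2-fold. Most pairs lie within 2-fold in Rpb3, and RPL15 stands far from the rest, at 2.42 in Rpb3 and 8.97 in RNA.

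The 4 largest RNA ratios were those of RPL15, RPS7, RPL41 and RPL9, all with more RNA from A. RPL15A had 305 RNA in the asynchronous mutant library and 257 in the asynchronous WT library with a value, where RPL15B had 0.619 and 0.706. The mean log2 ratio of this pair was 8.97 ± 0.35 (SD, n = 6 libraries) in RNA and 2.42 ± 0.29 (SD, n = 7 libraries) in Rpb3. Asynchronous WT replicate 1 had the opposite order in Rpb3, at −1.09. RPS7A and RPS7B, genes for a small-subunit protein, differed by 3.90 ± 0.36 (SD, n = 6 libraries) in RNA and by 0.19 ± 0.06 (SD, n = 7 libraries) in Rpb3. In arrested cells RPS7A had 31 and 26.3 in the mutant libraries and 22.7 and 24.9 in the WT libraries, and RPS7B had 1.66 and 1.68 in the mutant libraries and 2.05 and 1.09 in the WT libraries. For RPL41 the ratios were 3.16 ± 0.36 (SD, n = 6 libraries) in RNA and 0.88 ± 0.27 (SD, n = 7 libraries) in Rpb3.

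The direction of a pair in Rpb3 did not give its direction in RNA. It was the same in 28 of 57 pairs and opposite in 29. In 11 pairs the assays pointed in opposite directions in every library used (RPL4, RPL8, RPL9, RPL22, RPL31, RPL43, RPS6, RPS9, RPS14, RPS16 and RPS29), and in 17 they pointed in the same direction in every library. Blank bins lie in both copies of RPL4 and RPS6 and in 1 copy of RPL8, so the Rpb3 direction of these pairs is uncertain. The same holds for RPL1, RPL2 and RPL15 among the 17. RPL9 had the second largest Rpb3 ratio, at −1.12 ± 0.19 (SD, n = 7 libraries), and the fourth largest RNA ratio in the other direction, at 3.15 ± 0.25 (SD, n = 6 libraries). In arrested cells RPL9A had a Rpb3 signal of 113 and 122 in the mutant libraries and 99.1 and 112 in the WT libraries, and RPL9B had 273 and 238 in the mutant libraries and 226 and 209.5 in the WT libraries. In RNA RPL9A had 70.0 and 75.3 in the mutant libraries and 68.5 and 68.9 in the WT libraries, and RPL9B had 8.17 and 6.09 in the mutant libraries and 7.37 and 9.04 in the WT libraries. RPS14 was alike, with −0.98 ± 0.11 (SD, n = 7 libraries) in Rpb3 and 1.71 ± 0.46 (SD, n = 6 libraries) in RNA, and RPS9, whose protein acts in decoding accuracy, had 0.81 ± 0.08 (SD, n = 7 libraries) and −1.45 ± 0.14 (SD, n = 8 libraries). In these 3 pairs the values of the copies did not overlap in either assay over the libraries used.

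Pairs close to equal in RNA included RPS23 (0.04), RPL14 (−0.09), RPL34 (−0.17) and RPL19 (−0.19). In Rpb3 over all 8 libraries the 5 pairs closest to equal were RPS19, RPS30, RPL19, RPS4 and RPS18, between −0.03 and 0.03, and over the 7 libraries between −0.11 (RPS30) and 0.02 (RPL19). RPS23A and RPS23B encode the protein at the decoding site and had means of 32.3 and 31.1 RNA over 8 libraries. Reads of copies with the same sequence cannot be told apart, and no source used here says how they were assigned, so ratios between near-identical copies are uncertain.

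Some members are neighbours of each other on the chromosome, and Rpb3 carries no strand. In the R64 annotation 8 neighbouring pairs of genes were both members. Of those named here, the genes were divergent in RPS16B and RPL13A, RPL24A and RPL30, RPS22A and RPL39, and RPL13B and RPS16A, tandem in RPS9B and RPL21A, and convergent in RPS14B and RPS22A. The gaps were 298 to 1156 bp. Across the smallest gap, Rpb3 in asynchronous fkh1Δfkh2Δ2C was 459 and 498 over RPS14B and 266 and 314 over RPS22A. The order of RNA was the other way, with RPS14B at 4.14 and 4.42 in the asynchronous mutant libraries and RPS22A at 41.8 in the 1 library with a value. The signal that either gene receives from the other was not tested.

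Other genes of the translation machinery and of ribosomal protein control were listed beside the members. Calls of these lists are given with all libraries only, and some of their genes passed in Rpb3 without asynchronous WT replicate 1. Of the 5 P-stalk genes (RPP0, RPP1A, RPP1B, RPP2A and RPP2B), whose proteins recruit elongation factors to the ribosome, 0 passed in any of the comparisons of either assay with all libraries. In Rpb3 all 5 were lower in the arrested mutant, with log2 differences of −0.87 to −0.32. Without Rpb3 asynchronous WT replicate 1, their median difference in arrested WT was −0.58, measured against 1 asynchronous library. The median difference of the mutant from WT averaged over both stages was then 0.21. Their Rpb3 shared the members' pattern, as in RPP0 with 316 and 303 in asynchronous fkh1Δfkh2Δ2C and 33.9 and 317 in asynchronous WT. The ribosome-bound proteins ASC1 and STM1 and the 10 elongation factor genes, 7 of which entered the Rpb3 tests, also had 0 calls with all libraries. Without asynchronous WT replicate 1, ASC1 and STM1 had a median arrest difference in Rpb3 of −0.45 in WT and −0.31 in the mutant. The 7 elongation factor genes had −0.46 and −0.20. The translation factor gene HYP2 did not follow the members, with 606 and 543 in the asynchronous mutant and 571 and 665 in asynchronous WT, where replicate 1 was not low. CAM1, with 47.8 and 48.5 in asynchronous WT, was not low there either. Other elongation factor genes were low in replicate 1, among them YEF3 (51.3 and 372 in asynchronous WT), TEF4 (61.8 and 269) and EFB1 (131 and 324). Median percentiles in that library were 19.6 for the P-stalk genes, 13.6 for ASC1 and STM1, 10.9 for chaperones and importers of ribosomal proteins and 39 for the elongation factors. In the other libraries they were 96.07 to 98.77, 96.2 to 97.6, 50.13 to 83.41 and 35.65 to 68.87, in the same order. By this median, only the elongation factors lay inside their range of the other libraries, although some of their genes were low in replicate 1.

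Of the 12 regulators of ribosomal protein genes listed, 11 entered the RNA tests. In G1 averaged over both strains, 2.18% of all genes were called lower and 1.63% higher. Of the 11 regulators, ABF1 alone, which encodes a general factor that binds some of these promoters, fell in that comparison. It had 0.588 and 0.772 in G1 and 1.30 and 1.64 in asynchronous mutant cells, and 0.693 and 0.379 in G1 and 1.56 and 1.63 in asynchronous WT cells (log2 difference −1.28, limma adjusted p = 0.0259). RAP1, FHL1, IFH1 and SFP1 did not pass, and RNA of RAP1 was 0.615 and 0.632 in G1 and 1.27 and 1.17 in asynchronous mutant cells. Of 9 chaperones and importers, TSR2 alone, which encodes the chaperone of Rps26, rose in Rpb3 in arrested WT with all libraries (2.41% of all genes higher). It had 38.6 and 34.3 in G1 and 25.5 and 25.3 in asynchronous cells (log2 difference 0.46, limma adjusted p = 0.0217). In the mutant TSR2 had 39.2 and 41 in G1 and 39.8 and 41.4 in asynchronous cells. With all libraries BCP1 (−0.03) alone of the 9 genes was below 0 in arrested WT, and the others had 0.06 (SYO1) to 0.46 (TSR2). Without asynchronous WT replicate 1 the median arrest difference of the 9 genes in Rpb3 was −0.18 in WT and −0.29 in the mutant. For the 12 regulators it was −0.11 and −0.07.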

How the data were processed

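RNA polymerase II occupancy (ChIP-seq of Rpb3) and strand-specific RNA were analysed in 8 libraries each, 2 for each combination of strain and stage. The authors deposited both as normalized signal in bins of 50 bp. The sources used here name no aligner, genome build or normalization and no treatment of reads that match several places, so depth is unknown and no counting interval was computed. A name shared by 2 RNA columns made both unusable, which leaves Crick-strand genes 1 asynchronous RNA library per strain. RNA was read from the R columns for Watson-strand genes and from the F columns for Crick-strand genes.

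Genes of the R64 annotation were placed on the deposited bins by comparing the 2 coordinate systems, with 129 members within 1 bin and 3 on chromosome XI moved by 8 bins. The signal was averaged over each gene and transformed to log2 after adding 10% of the median gene signal (0.0642 for RNA and 4.02 for Rpb3), so fold changes of low genes are understated. The lowest 10% of genes were left out, which kept 5401. Limma (3.58.1, R 4.3.3) was fitted once per assay over 4 groups with a variance trend, and p-values were adjusted by the Benjamini-Hochberg method over all fitted genes, with a threshold of 0.05. A group with 1 library is assumed to vary like the others. The fit was tested on simulated data with known changes.

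Alternatives were a pseudocount of 50% of the median, no filter on low genes, no variance trend, a replicate block, the median over bins, centring on the median gene, leaving out each library, and, chosen after seeing the data, leaving out the bins of small RNA genes or blank bins. Replicate numbers are taken as names only, since the replicate differences did not correlate above 0.1 in every pair of groups. In Rpb3 they did correlate within a stage, at 0.464 between the arrested strains and 0.388 between the asynchronous strains.

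The members and gene lists were chosen with earlier results of these data known. Named members are those called, up to 10 in a direction by the size of the difference, or the 3 with the smallest p in a direction where fewer were called, in the fit with all libraries and in the Rpb3 fit without asynchronous WT replicate 1 (for which the averages over both strains and the interaction are given as counts). For levels they are the 5 highest and 5 lowest in asynchronous WT, and for pairs the 5 largest and 5 smallest ratios, and some of these members and pairs are not reported here. Genes of other lists are named where called with all libraries, and the rest were chosen after their values were seen.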

Additional observations from a re-analysis of the deposited data

How the results depend on the processing

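Apart from leaving out a library, the alternatives left 204 of 210 counts and medians of members in place, with the count within 1.5 times or the median moved by less than 1 SD of the library medians within groups. The counts that moved were all of RNA in G1 against asynchronous cells. With the median over bins 1 member was called in WT and 1 in the mutant, against 0 in each. Averaged over both strains, where 1 was called, there were 2 with a pseudocount of 50% of the median gene, 0 without a variance trend, 0 with libraries centred on the median gene, and 5 with the replicate block. The correlations of replicate differences between groups were 0.005 to 0.133 in RNA and 0.02 to 0.464 in Rpb3, so the numbers were not taken as pairs, and the block moved no other count of members past 1.5 times.

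Of the log2 differences of named members, 742 kept direction and call under those alternatives, 3 gained and 4 lost a call, and 14 changed sign, and the cause was not tested. With the median over bins RPS14A had 0.22 in RNA of the mutant against WT in asynchronous cells and 0.34 averaged over both stages, RPS27B had 4.6 in arrested cells, 3.86 in the interaction and −0.00252 in Rpb3 of the arrested mutant, RPS14B had 0.16 in arrested WT, and RPS22B had −0.0126 in G1 averaged over both strains. Without the bins of small RNA genes RPS22B had −0.20 in WT, −0.20 averaged over both strains and 0.00426 in the interaction. With the replicate block RPS1A had −0.11, RPL12A −0.11 and RPL41B −0.12 in the arrested mutant, and RPL41A −0.22 averaged over both strains.

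With 1 library left out at a time, Rpb3 calls ranged over 0 to 131 members for the mutant against WT in asynchronous cells, 0 to 131 averaged over both stages, 0 to 131 for G1 against asynchronous WT, 0 to 95 in the mutant, 0 to 130 averaged over both strains and 0 to 131 in the interaction. Calls outside 0 arose where asynchronous WT replicate 1 or 2 was left out. Such a fit holds 1 asynchronous WT library and takes its spread from the other groups. Without replicate 2, genes outside the members were also called in both directions in each of these comparisons. Except for G1 against asynchronous cells in the mutant, these Rpb3 counts therefore depend on which library remains. In the mutant the differences were the same without either library, which enters only through the pooled spread. The calls were not confined to the members. RNA calls in G1 averaged over both strains were 0 to 1, where the 1 call, without arrested WT replicate 1, was RPS14B, and RPL27B was called in 0 of the 8 fits. Medians ranged over 0.28 to 2.59 in Rpb3 of the mutant against asynchronous WT, −0.36 to 2.01 in arrested WT and −2.42 to −0.078 in the interaction, and in RNA over −0.13 to 0.17 for the mutant against asynchronous WT and −0.0705 to 0.29 in the interaction. Among RNA differences that changed sign, RPS1A ranged over −0.091 to 0.32 and RPL41B over −0.16 to 0.26 in the mutant, and RPL41A over −0.0792 to 0.38 averaged over both strains. In Rpb3, RPL15B ranged over −0.39 to 0.0249 and RPL11A over −0.28 to 0.0989 between arrested strains, RPS27B over −0.0253 to 0.17 in the arrested mutant, and, averaged over both strains, RPS22B over −0.13 to 1.07, RPS28A over −0.58 to 0.14 and RPS25B over −0.53 to 0.28. In arrested WT the ranges were −0.87 to 1.64 for RPL1B, −0.83 to 1.79 for RPS20, −0.73 to 1.79 for RPS24B, −0.63 to 1.34 for RPL9B, −0.61 to 2.89 for RPS14B, −0.58 to 2.18 for RPS1B, −0.58 to 1.99 for RPL2A, −0.57 to 1.56 for RPL40B, −0.57 to 1.43 for RPS27A and −0.57 to 2.3 for RPL15A.

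Groups of 2 libraries, unknown depth and 1 asynchronous RNA library per strain for Crick-strand members limit the precision.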
